A study of Homo sapiens with 6 samples.

Results

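The genes described here are 10 mucin genes in SW620, a human colon cancer line that was established from a metastasis in a lymph node: the secreted MUC2, MUC5AC and MUC5B, and the membrane-bound MUC1, MUC3A, MUC4, MUC12, MUC13, MUC17 and MUC20. They were taken by symbol from the deposited count table, 1 row for each symbol, and all 10 were found among its 60835 unique gene names. Polyadenylated RNA of 2 groups was compared, 3 libraries each. The shControl group carried a control vector and is labelled genotype WT and batch_A. The shDNM1 group is labelled as a stable knockdown of DNM1, which encodes the vesicle-pinching GTPase dynamin 1, and as batch_B. Both groups were SW620 cells in the same high-glucose, serum-containing medium, and whether the stable cells were 1 clone or a pool is not given in the sources used here. Since batch label and vector coincide, an effect of one cannot be told apart from an effect of the other. The labels do not state whether libraries of the same group were separate cultures. The p-values then weigh the difference between the groups only against the spread of these libraries, which may be technical.

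Mucins are large glycoproteins whose serine- and threonine-rich repeats carry dense O-linked sugar chains. Secreted gel-forming mucins are packed into granules by goblet cells and other secretory cells and polymerise into mucus, and MUC2 is the main one of the healthy colon. Membrane mucins stay anchored in the apical surface, where they form part of the glycocalyx and, through their short cytoplasmic tails, take part in signalling.

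DNM1 itself, the targeted gene, was read 1653, 1723 and 1730 times in the shControl libraries and 1620, 1227 and 1651 times in the shDNM1 libraries. In CPM (counts scaled to library size with TMM factors), this was 129 ± 3.78 against 116 ± 16 (SD, n = 3). Its log2 fold change of -0.15 ± 0.083 (SE) had an adjusted p of 0.189 in edgeR's quasi-likelihood test (Benjamini-Hochberg, all 16744 tested genes), and its 95% interval ran from -0.32 to 0.03. A lower DNM1 level thus did not pass the test in the libraries labelled shDNM1, and every direction given here is between libraries labelled shDNM1 and shControl. Library totals ran from 12844534 to 13537519 counts. In the same test 31.9% of all tested genes had an adjusted p under 0.05, 15.6% higher and 16.2% lower in shDNM1. Such a call was 2-fold or more for 1.86% of the tested genes upward and 2.96% downward. The median log2 fold change of all tested genes was -0.01.

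Repeats are visible in these transcripts to very different degrees, and they are shown because they set how reads can be placed. The most frequent stretch of 24 bases was taken from the longest GENCODE release 29 transcript of each gene, and the words of 5 genes are given here 5′ to 3′, with lower case throughout because no base is singled out.
MUC1: ccacggtgtcacctcggccccgga
MUC2: ggtgaccccaaccccaacacccac
MUC4: cttcctgtcaccgacacttcctca
MUC5AC: ctcctacaaccagcacaacctctg
MUC13: cacctgctccccccataattagta
The MUC1 word occurred 40 times in a transcript of 4170 bases, most often 60 bases apart. The MUC2 word occurred 43 times in 12667 bases, most often 69 bases apart. This longest MUC2 transcript is typed by GENCODE as a processed transcript, not as protein-coding. The MUC4 word occurred 40 times in 17110 bases, most often 48 bases apart. In MUC5AC the word recurred 16 times. MUC13 stood at the other end, with 2 occurrences. Of all windows of 50 bases in the transcript, 61.5% in MUC12 and 42.4% in MUC1 occurred more than once within the same transcript. The share was 29.2% in MUC5B, 28.3% in MUC4, 21.4% in both MUC5AC and MUC2, 19.7% in MUC20 and 8.60% in MUC17. It was lowest in MUC3A, at 1.86%, and in MUC13, at 0%. Windows shared with another gene were rare for 9 of the 10 members (at most 1.55%, in MUC17) but made up 69.1% of the MUC20 transcript, which shares them with MUC20-OT1 and MUC20P1. MUC5AC and MUC5B shared 0.379% and 0.369% of their windows with each other. How reads in shared windows, or in windows repeated within a transcript, were counted is not given in the sources used here. The MUC20 count is therefore uncertain, and so are the levels of the repeat-rich members relative to MUC13.

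Among the 10 genes, the secreted mucins rose and the most abundant membrane mucin fell. MUC2, MUC5AC and MUC5B were higher in the libraries labelled shDNM1, 4.72-fold, 3.11-fold and 3.31-fold. MUC13 was 3.33-fold lower, and MUC1 stayed within the spread of the libraries. Of the 10 genes, 6 passed the low-count filter. Of these 6, 3 were called higher, 1 lower and 2 did not pass the test, in a comparison where 31.9% of all tested genes were called. All 4 calls were larger than 2-fold.

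MUC2, the gel-forming mucin of the intestinal goblet cell (ENSG00000198788, GRCh38, chromosome 11, 1074875 to 1110511, plus strand), was read 30, 32 and 29 times in the shControl libraries and 174, 134 and 111 times in the shDNM1 libraries. The 3 control libraries lay close together, and the lowest shDNM1 library was far above the highest of them. MUC2 went from 2.30 ± 0.061 to 10.9 ± 2.54 CPM (SD, n = 3). The log2 fold change was 2.24 ± 0.21 (SE), with a 95% interval of 1.80 to 2.68 and an adjusted p of 2.54e-07 (edgeR). Only 27 of the 16744 tested genes had a larger rise. The spread within shDNM1 was wide, with 13.5 CPM in replicate 1 and 8.44 CPM in replicate 3.

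MUC5AC, the gel-forming mucin of the stomach surface and the airway (ENSG00000215182, chromosome 11, 1157953 to 1201138, plus strand), had 14, 23 and 26 counts in shControl and 68, 58 and 66 in shDNM1. The groups did not overlap, and the control libraries were the more variable in proportion. MUC5AC went from 1.59 ± 0.47 to 4.97 ± 0.33 CPM (SD, n = 3). The log2 fold change was 1.64 ± 0.26 (SE), with an adjusted p of 7.97e-05 (edgeR), and 82 tested genes rose more.

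MUC5B, best known from airway and salivary glands (ENSG00000117983, chromosome 11, 1223066 to 1262172, plus strand), had 12, 18 and 11 counts in shControl against 57, 37 and 39 in shDNM1. The lowest shDNM1 library again lay above the highest control. Its level went from 1.03 ± 0.26 to 3.45 ± 0.85 CPM (SD, n = 3), a log2 fold change of 1.73 ± 0.31 (SE) with an adjusted p of 0.000339 (edgeR). MUC5B-AS1, an antisense gene that overlaps MUC5B on the other strand, was listed at 0 counts in all 6 libraries.

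MUC6, the stomach gland mucin and the remaining gel-forming gene of this chromosome 11 cluster, is not one of the 10. It was read 22, 12 and 13 times in shControl and 29, 18 and 37 times in shDNM1, and the groups overlapped. Its log2 fold change was 0.86 ± 0.36 (SE), with an adjusted p of 0.0736 (edgeR). The call depended on single libraries: leaving out shControl replicate 1 gave 1.20 (adjusted p = 0.0476), and leaving out shDNM1 replicate 2 gave 1.09 (adjusted p = 0.0327). The other cluster genes kept their call whichever library was left out.

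**Figure D1:**
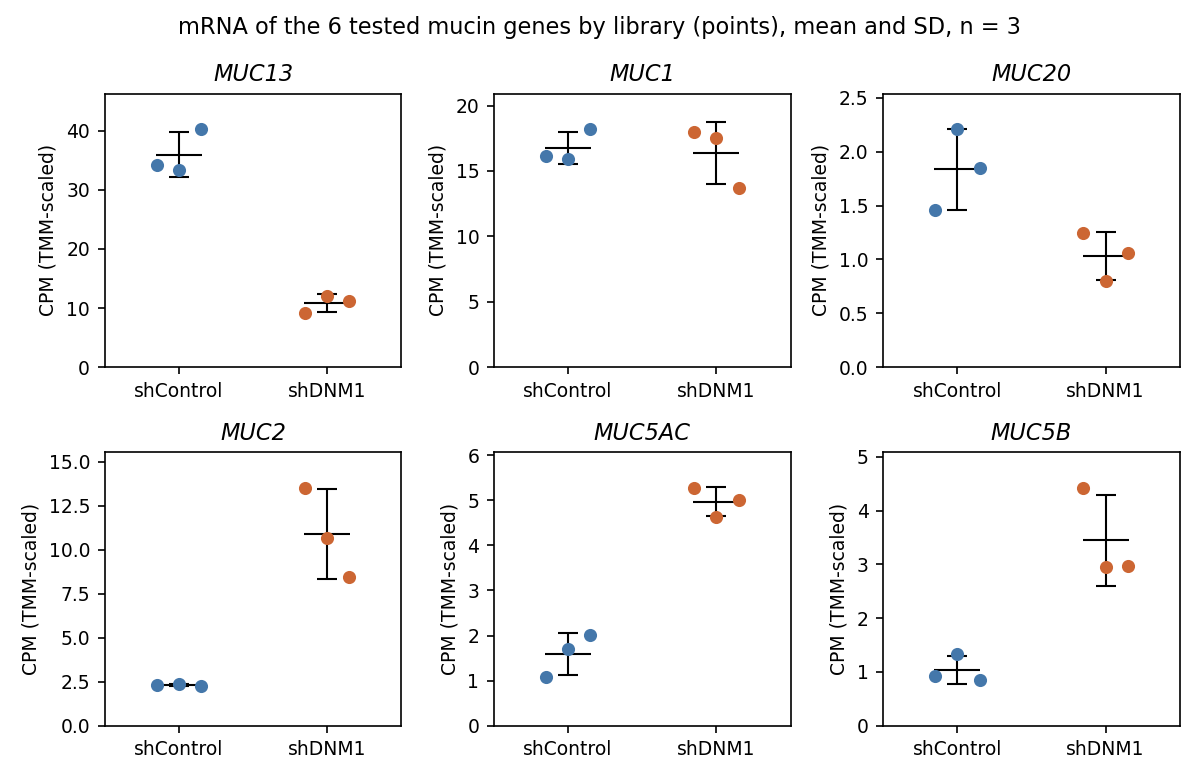
TMM-scaled CPM (vertical axes, each starting at 0) of the 6 tested mucin genes in the 3 shControl (blue) and 3 shDNM1 (orange) libraries, with the mean and SD in black. MUC2, MUC5AC and MUC5B sit higher in every shDNM1 library, MUC13 sits lower in every one, MUC20 is lower without passing the test, and MUC1 overlaps.

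MUC13, a membrane mucin abundant on intestinal epithelium (ENSG00000173702, chromosome 3, 124905442 to 124953819, minus strand), was the most read of the 10 in shControl. Its counts were 446, 452 and 522 there and 117, 151 and 148 in shDNM1. The highest shDNM1 library had far fewer reads than the lowest control. It went from 35.9 ± 3.78 to 10.8 ± 1.53 CPM (SD, n = 3), which left 30.1% of the control level (95% interval 25.2% to 35.8%). The log2 fold change was -1.73 ± 0.12 (SE), with an adjusted p of 6.56e-09 (edgeR), and 109 tested genes fell more.

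MUC1, the widely expressed membrane mucin whose tail takes part in growth factor signalling (ENSG00000185499, chromosome 1, 155185824 to 155192916, minus strand), had 211, 216 and 236 counts in shControl and 231, 220 and 180 in shDNM1. The groups overlapped, with shDNM1 replicate 3 the lowest library of all. Its log2 fold change was -0.03 ± 0.13 (SE), with an adjusted p of 0.874 (edgeR). The 95% interval, from -0.30 to 0.23, corresponds to 81.3% to 118% of the control level.

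MUC20, a small membrane mucin (ENSG00000176945, chromosome 3, 195720884 to 195741123, plus strand), had 19, 30 and 24 counts in shControl and 16, 10 and 14 in shDNM1. All 3 shDNM1 libraries were below the 3 controls in CPM, yet the adjusted p was 0.0753 (edgeR) for a log2 fold change of -0.82 ± 0.34 (SE). MUC20-OT1, an overlapping transcribed pseudogene on the same strand, shares 19081 bases of the MUC20 span and was read far more often, 544 to 665 times in a library. Its own log2 fold change was -0.07 (adjusted p = 0.546, edgeR). How reads were divided between MUC20 and MUC20-OT1 was not tested.

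**Figure D2:**
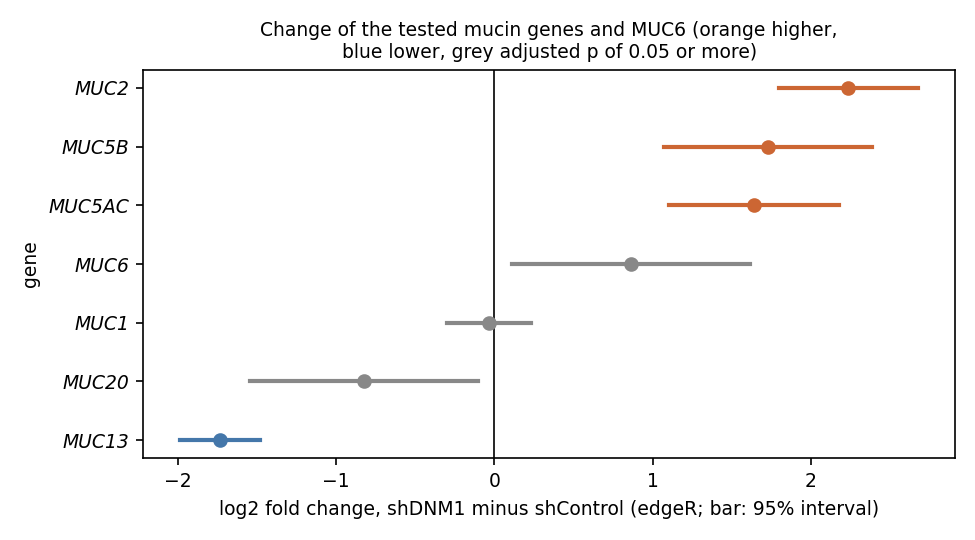
Log2 fold change (shDNM1 minus shControl, horizontal axis) of the 6 tested mucin genes and MUC6 from edgeR, with 95% intervals not adjusted for the number of genes. MUC2 at 2.24, MUC5B at 1.73 and MUC5AC at 1.64 lie on one side of 0 and MUC13 at -1.73 on the other.

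The other membrane mucins were at or near the limit of the libraries and were not tested in the main comparison. MUC4, a large membrane mucin that binds ERBB2 (chromosome 3, 195746765 to 195811973, minus strand), had 0, 2 and 4 counts in shControl and 10, 3 and 6 in shDNM1, with overlap between the groups. The summed counts, 6 against 19, gave a ratio of 3.25 after scaling, with an exact 95% interval of 1.248 to 9.94 that covers counting error only. Fitted with no low-count filter, over 35100 genes, MUC4 had a log2 fold change of 1.63 ± 0.83 (SE) and an adjusted p of 0.214 (edgeR).

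The 3 membrane mucins that lie side by side on chromosome 7 were nearly unread. MUC3A (100949534 to 100968347, plus strand) had 5 counts over the shControl libraries and 4 over the shDNM1 libraries. MUC12 (100969565 to 101018939, plus strand) had 2 and 1. MUC17 (101020072 to 101058859, plus strand) had 0 counts in all 6 libraries, which at a limit of 3 counts allows up to 0.221 to 0.239 CPM in a library. All 3 are mucins of the enterocyte brush border, and no difference between the groups was detectable at this depth.

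Levels of different genes were compared per transcript length, in the deposited TPM (transcript level scaled by gene length and library). In shControl the order was MUC13 at 38.0 ± 4.05 TPM, MUC1 at 28.2 ± 2.15, MUC20 at 1.11 ± 0.21, MUC2 at 0.553 ± 0.013, MUC5AC at 0.277 ± 0.081 and MUC5B at 0.175 ± 0.042 (SD, n = 3). MUC5AC and MUC5B were neighbours whose libraries overlapped. In shDNM1 the order was MUC1 at 26.5 ± 3.74 TPM, MUC13 at 10.9 ± 1.29, MUC2 at 2.52 ± 0.62, MUC5AC at 0.836 ± 0.080, MUC20 at 0.602 ± 0.15 and MUC5B at 0.565 ± 0.15. MUC20 and MUC5B could not be ordered there, since their libraries overlapped. MUC2 and MUC5AC thus each moved up 1 place and MUC5B kept its place, and all 3 stayed well below MUC1 and MUC13. The place of MUC20 rests on its length, which the deposited values put at 1.76 times that of MUC13 while its longest GENCODE transcript is 0.987 times as long. In CPM per kilobase of the longest transcripts, an alternative added after the data were seen, MUC20 in shDNM1 was 0.364 ± 0.079 and MUC5AC 0.285 ± 0.019 (SD, n = 3), with overlap between them. MUC4, MUC3A and MUC12 were below 0.1 TPM on average in both groups.

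As a share of the summed TPM of the 10 genes, the 3 gel-forming members held 1.38%, 1.69% and 1.37% in the shControl libraries and 10.8%, 8.31% and 8.72% in the shDNM1 libraries. Their summed level rose from 1.01 ± 0.085 to 3.92 ± 0.82 TPM (SD, n = 3). The sum over all 10 genes was lower in shDNM1, at 42.1 ± 3.59 TPM against 68.4 ± 6.19, and the highest shDNM1 library (44.9) lay below the lowest control (63.6). MUC13 made up 55.5% ± 0.90 of that sum in shControl and 26.3% ± 4.76 in shDNM1. The share of MUC1, whose own level did not pass the test, went from 41.3% ± 0.61 to 62.7% ± 3.68. These shares depend on the gene lengths too. With the longest transcripts MUC13 held 71.3% ± 1.154 in shControl and 39.9% ± 6.14 in shDNM1, MUC1 held 23.0% ± 0.44 and 41.6% ± 3.74, and the gel-forming members held 1.90% ± 0.23 and 14.2% ± 2.37. Each of these shares moved in the same direction under both sets of lengths. The share of MUC20 did not, and its libraries overlapped between the groups under both. It went from 1.63% ± 0.38 to 1.44% ± 0.35 in deposited TPM. With the longest transcripts it went from 3.72% ± 0.86 to 3.89% ± 0.94. No share carries a test of its own.

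**Figure D3:**
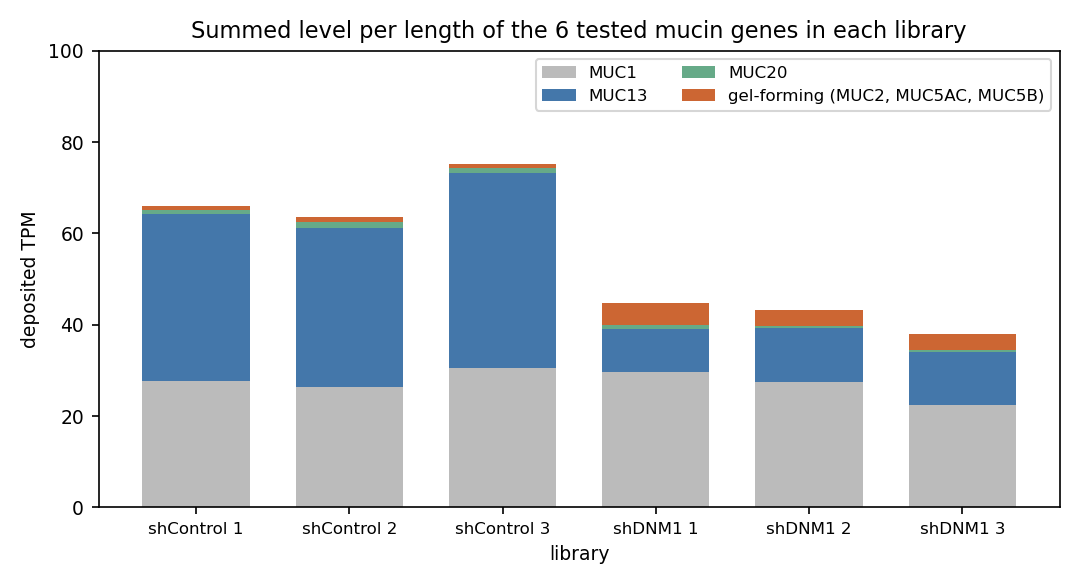
Deposited TPM (vertical axis from 0) of the 6 tested mucin genes stacked in each library, with MUC2, MUC5AC and MUC5B drawn as 1 block. The MUC13 block shrinks in the 3 shDNM1 libraries, the MUC1 block stays at a like height, and the gel-forming block grows from about 1.01 to 3.92 TPM on average.

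The ratio of MUC13 to MUC1 in TPM was 1.33, 1.32 and 1.39 in the shControl libraries and 0.319, 0.432 and 0.517 in the shDNM1 libraries. Which of the pair is the higher in shDNM1 rests on the gene lengths behind the TPM. The deposited values imply a MUC1 length 0.629 times that of MUC13, while the longest GENCODE transcript of MUC1, which holds the repeats, is 1.45 times as long. Counted per kilobase of the longest transcripts, the ratio went from 3.10 ± 0.092 to 0.973 ± 0.23 (SD, n = 3). With these lengths MUC13 was above MUC1 in shControl and about level with it in shDNM1, and by construction the ratio fell by the same factor. For 5 of the 7 remaining members with reads the implied length and the longest transcript agreed within 1%.

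Within the gel-forming group 2 of the 3 ratios overlapped between the groups. MUC2 over MUC5AC in TPM was 2.13 ± 0.73 for the controls and 3.01 ± 0.62 for shDNM1 (SD, n = 3), with overlap. MUC5AC over MUC5B was 1.65 ± 0.68 and 1.52 ± 0.27, with overlap. MUC2 over MUC5B was 3.26 ± 0.65 and 4.49 ± 0.57, and here every shDNM1 library was above every control, which was not tested.

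The promoters of members that moved in opposite directions, MUC2 and MUC13, and of MUC1, which did not pass the test, are shown next. They were chosen by those results. Each sequence is the 250 bases before the RefSeq start of the gene on build GRCh38.p14, 5′ to 3′ on the gene's strand, and capitals mark letters that match a searched motif on either strand. RefSeq windows were found for 7 of the 10 members.
MUC2, chr11:1074624-1074873, plus strand: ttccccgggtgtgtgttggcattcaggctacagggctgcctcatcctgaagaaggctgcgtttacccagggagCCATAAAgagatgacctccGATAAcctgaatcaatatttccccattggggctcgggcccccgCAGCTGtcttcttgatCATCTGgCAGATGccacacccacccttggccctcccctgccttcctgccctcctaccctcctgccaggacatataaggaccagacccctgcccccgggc
MUC13, chr3:124934752-124935001, minus strand: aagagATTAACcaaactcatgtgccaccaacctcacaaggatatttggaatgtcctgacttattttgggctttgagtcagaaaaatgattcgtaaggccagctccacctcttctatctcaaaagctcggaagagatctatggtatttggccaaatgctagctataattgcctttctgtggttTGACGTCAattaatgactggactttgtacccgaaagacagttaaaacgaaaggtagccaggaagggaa
MUC1, chr1:155192916-155193165, minus strand: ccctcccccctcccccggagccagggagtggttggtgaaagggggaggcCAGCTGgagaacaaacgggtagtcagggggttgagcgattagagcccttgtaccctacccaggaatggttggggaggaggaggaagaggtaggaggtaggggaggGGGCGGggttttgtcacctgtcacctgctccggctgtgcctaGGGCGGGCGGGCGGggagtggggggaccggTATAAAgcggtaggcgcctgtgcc
The MUC2 window held the CDX-type motif TTTATNG at -177, the GATA motif GATAA at -158 and the E-box CAGCTG at -115, counted from the start, and the E-box CAGATG in 2 places. The MUC13 window held the HNF1 half-site GTTAAT at -245 and the cyclic AMP response element TGACGTCA at -68. The MUC1 window held TATAAA at -24, CAGCTG at -201 and the GC box GGGCGG in 4 places, 3 of which overlap each other by their ends. None of the 8 motifs was found in both MUC2 and MUC13. Motifs of the MUC2 window were not particular to it among the members. TTTATNG also occurred in MUC12 at -31, and GATAA in MUC17 in 3 places and in MUC3A at -10, all 3 nearly unread genes. A relation between motifs and the direction of change was not tested. Over 35116 RefSeq windows of this length, TTTATNG was present in 8.93%, GATAA in 20.4%, CAGCTG in 13.99%, CAGATG in 12.2%, GTTAAT in 6.23%, TGACGTCA in 1.65%, TATAAA in 10.7% and GGGCGG in 42.6%. GC content was 66% in the MUC1 window, 59.6% in MUC2 and 41.6% in MUC13, against a median of 58.0% over all windows. The RefSeq start of MUC13 lies 19068 bases from the start of the deposited row, so its window belongs to one of several possible starts. A match is only a run of letters, and no binding was measured in these data.

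Transcription factors linked to mucin and goblet cell genes changed in both directions. Of 33 listed, 24 were tested, 5 rose and 11 fell, with a median log2 fold change of -0.21. Over all tested genes 15.6% rose and 16.2% fell. The count of factors that fell ranged from 5 to 13 over the other settings, with 7 without shControl replicate 1, 6 without shControl replicate 2, 5 without shControl replicate 3 and 6 without shDNM1 replicate 3. CDX2, the caudal-type factor of intestinal identity, rose from 8.06 ± 1.49 to 19.9 ± 1.48 CPM, a log2 fold change of 1.30 ± 0.14 (SE). FOXA3, a forkhead factor of the gut endoderm, rose by 0.48 on the log2 scale. KLF3, a repressor of the KLF family, fell by 0.46 and NFKB1, the p105 precursor of NF-kappaB, fell by 0.54 (edgeR, adjusted p under the threshold for all 4). ATOH1, the factor that sets the secretory fate in the intestine, CDX1 and GATA4 had no counts in any library.

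Enzymes that build mucin-type O-glycans also went both ways. Of 38 listed, 22 were tested, 9 fell and 3 rose, and 10 did not pass, with a median log2 fold change of -0.15. Over the 16 other settings 6 to 10 fell and 3 to 4 rose. Of all tested genes 16.2% fell and 15.6% rose. GALNT1 and GALNT16, which belong to the family that attaches the first sugar to serine or threonine, went from 49.5 ± 2.60 to 29.01 ± 3.97 CPM and from 8.31 ± 0.38 to 2.80 ± 0.28 CPM. GCNT1, which makes the core 2 branch, fell by 1.32 on the log2 scale. B3GNT3, which extends core 1 chains, went the other way, from 72.3 ± 4.25 to 113 ± 8.27 CPM (edgeR, all 4 called).

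Genes of mucin packaging and co-secretion followed no single direction. Of 26 listed, 9 were tested: 3 rose, 1 fell and 5 did not pass, with a median log2 fold change of -0.005, where 15.6% of all tested genes rose and 16.2% fell. In the 16 other settings 2 to 3 rose and 1 to 2 fell. KLK1, a tissue kallikrein of goblet cells, rose from 16.0 ± 0.93 to 35.7 ± 2.31 CPM. TFF3, the trefoil peptide secreted with MUC2, rose by 0.31 on the log2 scale with an adjusted p of 0.0137 (edgeR), a call lost without shControl replicate 1 (0.0662) and without shControl replicate 2 (0.0551). SYTL4, a granule docking protein, rose by 0.39, a call lost on both TPM scales, and RAB27A, a GTPase of granule docking, fell by 0.46. CLCA1 and SPINK4, both goblet products, had no counts in any library.

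Of 20 tested partners and sheddases of membrane mucins, 7 were higher, 6 lower and 7 did not pass, beside 31.9% called among all tested genes (15.6% higher, 16.2% lower). The counts ran from 5 to 9 higher and from 5 to 6 lower over the 16 other settings. MSN (moesin) and RDX (radixin), which tie membrane proteins to actin, rose by 0.58 and 0.43 on the log2 scale. ERBB2, the receptor tyrosine kinase bound by MUC4, went from 85.0 ± 1.76 to 44.2 ± 2.22 CPM, and ADAM9, a membrane protease, fell by 0.55 on the log2 scale. Across all 23 genes named as mucins that the table held, 10 were tested, with 4 higher and 2 lower. Besides the 4 called members these were CD164, a sialomucin of the cell surface (242 ± 6.02 to 275 ± 19.5 CPM), and OVGP1, oviductin (5.05 ± 0.55 to 3.37 ± 0.40 CPM). The CD164 call was lost in 10 of the 16 other settings, including each omission of a single library except that of shDNM1 replicate 2. OVGP1 did not pass in 6 of the 16 settings, among them those that left out shDNM1 replicate 1, shControl replicate 2, shDNM1 replicate 3 or shControl replicate 3. MUC7, MUC15, MUC22, MUCL1 and EMCN joined MUC17 in having no counts.

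The markers of the labelled cell type were present: the epithelial keratins KRT8, KRT18 and KRT19 were abundant, and KRT8 reached 5776 ± 264 CPM in shControl and 6939 ± 389 CPM in shDNM1. The marker counts that follow stand beside 15.6% higher and 16.2% lower among all tested genes. Of 10 tested intestinal epithelial markers 5 were higher and 1, EPCAM, was lower, a call lost when shControl replicate 1, shControl replicate 3 or shDNM1 replicate 3 was left out. Over the 16 other settings 3 to 5 of these markers were called higher, and the call of KRT8 was lost in 2 settings. The summed level of the intestinal epithelial markers was 10624 to 11334 TPM in shControl and 11970 to 12831 TPM in shDNM1. Of 10 goblet markers only 3 were tested, 2 of them higher (MUC2 and TFF3). The other, FCGBP, did not pass, with a log2 fold change of -0.80 (adjusted p = 0.155, edgeR). The summed goblet level was 112 to 125 TPM in shControl and 127 to 153 TPM in shDNM1. Nearly all of that sum was TFF3, at 110 to 123 TPM in shControl and 123 to 148 TPM in shDNM1. Of 10 absorptive markers 2 were tested and neither passed. Stem cell markers were lower for 3 of 6 tested (LGR5, SMOC2 and PROM1) and higher for ASCL2. Fibroblast markers were higher for 2 of 3 tested, LUM and PDGFRB, with COL3A1 at 0 in every library and a summed level of 28.6 to 36.1 TPM in shControl and 36.2 to 54.3 TPM in shDNM1. Gastric, airway, enteroendocrine and leukocyte lists had 3, 1, 1 and 1 tested members, of which MUC5AC and MUC5B rose and CHGB and LYZ fell. MUC2, MUC5AC and MUC5B belong to the 10 mucins described here, so as markers they only repeat their own values. MUC5B was the only tested gene of the airway list. Apart from MUC5AC, no tested gene of the gastric list was called. The call of LUM was lost without shControl replicate 2 (adjusted p = 0.067) and without shDNM1 replicate 1 (0.0628). That of CHGB was lost when any of these 3 libraries was left out: shDNM1 replicate 1 (0.0673), shControl replicate 3 (0.189) and shDNM1 replicate 3 (0.069). In bulk RNA, more cells that express a gene and more RNA per cell cannot be told apart, and the part of these markers in the mucin differences was not tested.

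Genes next to the mucins were read as a local comparison. On chromosomes 1, 3 and 7 the nearest tested protein-coding genes did not pass: TRIM46 and THBS3 beside MUC1, ITGB5 and HEG1 beside MUC13, PPP1R2 and TNK2 beside MUC20 and MUC4, and SRRT and TRIM56 beside the MUC3A cluster had log2 fold changes between -0.08 and 0.15. The largest of these values was that of HEG1, at 16.8 CPM in shControl and 18.7 CPM in shDNM1. SRRT was called lower on log2(TPM + 1) by limma (adjusted p = 0.0479) and in no other of the 16 settings. The genes on either side of MUC13 thus had values of -0.02 and 0.15 beside its -1.73. On chromosome 11 TOLLIP, an adaptor of Toll-like receptor signalling that lies next to MUC5B, rose by 0.37 on the log2 scale (adjusted p = 0.00091, edgeR), with 57.4 CPM in shControl and 74.2 CPM in shDNM1.

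A wider window around MUC2 was examined after its values had been seen. Among 48 tested protein-coding genes within 1000 kb of the MUC2 start, without the 4 clustered mucins, 17 were higher (35.4%) and 5 lower (10.4%), with a median log2 fold change of 0.11. Without shControl replicate 3 the lower count was 3. Over all 12595 tested protein-coding genes with coordinates, 18.8% were higher and 18.4% lower. The lower genes were RIC8A, B4GALNT4, GATD1, PIDD1 and MRPL23. LSP1, an actin-binding protein gene 776 kb from MUC2, had a log2 fold change of 2.51, above that of MUC2. Widening the window to 1500 kb gave 23 higher and 5 lower of 55. IGF2, the insulin-like growth factor gene 1054 kb away, was among those added.

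**Figure D4:**
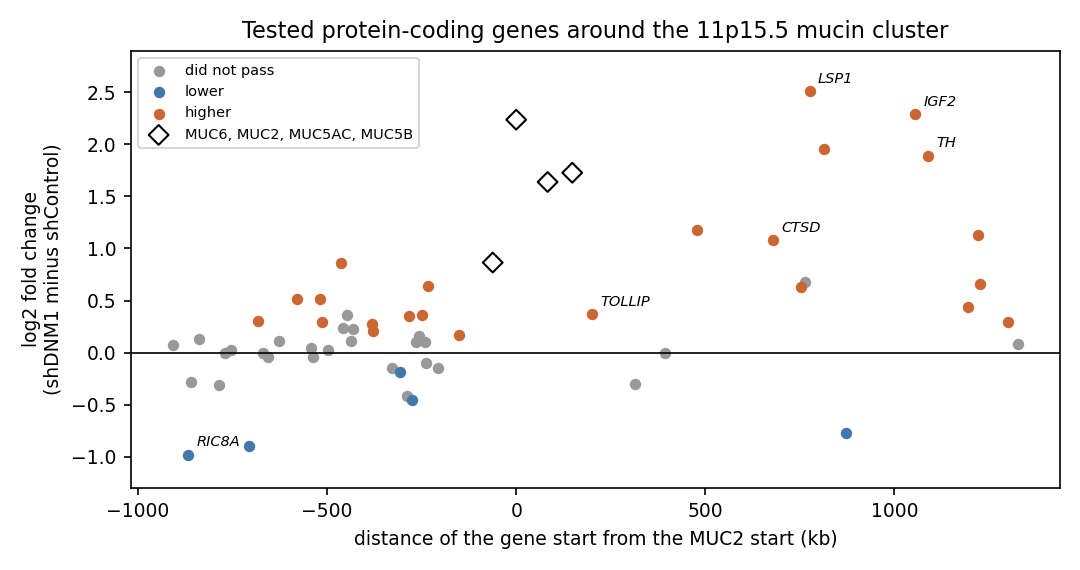
Log2 fold change (shDNM1 minus shControl, vertical axis) of tested protein-coding genes against the distance of their start from that of MUC2 in kb; orange points were called higher, blue lower and grey did not pass, and open diamonds are MUC6, MUC2, MUC5AC and MUC5B. Within 1000 kb, 17 points apart from the mucins are orange and 5 blue. LSP1, at 776 kb, and IGF2, outside that window at 1054 kb, reach the height of MUC2.

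The genes whose profile over the 6 libraries was nearest to that of MUC2 were found among 10784 protein-coding genes by the root mean square difference of centred log2 CPM. They were IGF2 at 0.216, RASGEF1A, ALPP, LSP1 and WNT7B, the farthest at 0.292. ALPP has a near-identical paralog, so its count is uncertain. IGF2 went from 21.0 ± 1.29 to 103 ± 1.27 CPM. The genes nearest to MUC13 were CCNI at 0.0767, CHST6, GALNT16, CRTAP and ST6GAL1, the farthest at 0.163. CCNI, which encodes cyclin I, went from 66.1 ± 3.41 to 18.9 ± 2.37 CPM, and GALNT16 is also in the O-glycosylation list. With 2 groups, likeness mainly reflects a fold change of like size, and the measure carries no test.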

How the data were processed

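RNA of 6 SW620 libraries was prepared with a SMARTER mRNA-seq kit, per the labels' protocols, and groups were taken from the sample titles. The authors deposited read counts per gene as whole numbers without normalisation. Build GRCh38 is named in the submitters' processing notes. Neither the aligner, the counter nor the annotation release is given, and use of strand is unknown. The TPM values deposited by the authors are entered as a score, since they sum to 1000000 over unique names and to more over all lines. In each file 2328 of 62710 lines shared 453 names with identical values and were collapsed, leaving 60835 names. No per-sample column was left unused (0). RefSeq supplied gene types for 41985 names.

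The test was edgeR 4.0.16 in R 4.3.3 with filterByExpr, TMM scaling and the two-sided quasi-likelihood F test over all 16744 genes kept, with Benjamini-Hochberg adjustment at 0.05. Library totals of 12844534 to 13537519 counts set the precision, and intervals on summed counts cover counting error only. No p was adjusted over a list alone. Other software was Python 3.11.15, pandas 2.3.3, numpy 2.4.6, scipy 1.17.1 and matplotlib 3.10.9. Transcripts came from GENCODE release 29 and promoters from RefSeq on GRCh38.p14.

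The members and lists were chosen with earlier results of these data known. Genes named besides the 10 were the targeted gene, up to 4 called members of each list with the smallest p, list members that share a locus with a member, the nearest tested protein-coding neighbours, and the 5 genes with an average log2 CPM of at least 2 nearest in profile to MUC2 and to MUC13. Other named genes were chosen after their values were seen. Alternatives were scaling by RLE, upper quartile or library size, no low-count filter, a filter at 1 CPM in 3 libraries, limma-voom, limma 3.58.1 on log2(TPM + 1) and log2(TPM + 0.1), DESeq2 1.42.0, a replicate block, and omission of each library in turn.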

Additional observations from a re-analysis of the deposited data

How the results depend on the processing

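In all 16 other settings 3 of the 10 mucins were called higher and 1 lower, while 3990 to 6080 genes were called in all. On log2(TPM + 1), which compresses low levels, the log2 differences were 1.17 for MUC2, 0.52 for MUC5AC and 0.41 for MUC5B, all still called by limma. With the replicate block the MUC2 value was 2.22 and 6080 genes were called. Correlations of the deviations of libraries with the same number were 0.102, 0.063 and -0.033. Between libraries with different numbers they ran from -0.098 to 0.033. All were small, and whether the numbers pair the libraries is not settled by them. The block changed no call of a member. MUC20 did not pass in any setting (adjusted p 0.0663 to 0.255).

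Of the genes that did not pass, MUC1, TRIM46, THBS3, ITGB5, TNK2 and TRIM56 changed sign in some settings. MUC1 ranged from -0.10 to 0.084 with a library left out, being 0.024 without shControl replicate 3 and 0.084 without shDNM1 replicate 3. The same ranges were -0.12 to 0.12 for TRIM46, -0.080 to 0.11 for THBS3, -0.078 to 0.056 for ITGB5 and -0.0045 to 0.087 for TNK2. THBS3 was -0.0094 by library size alone and -0.035 and -0.041 on the scales of log2(TPM + 1) and log2(TPM + 0.1). On these 2 scales and by library size alone TNK2 was -0.029, -0.029 and -0.0030, and TRIM56 was -0.012 and -0.013 on the TPM scales. The cause was not tested. Near MUC2, 13 to 18 genes were higher and 3 to 7 lower, with 3 without shControl replicate 3. Depth limits MUC3A, MUC4, MUC12 and MUC17, each read at most 10 times in a library.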

Other observations

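Among genes named as mucins outside the 10, MUC16, MUC19, MUC21 and MUCL3 had few counts and were not tested. MUC16, a very large membrane mucin known as the source of CA125, had 9 summed counts in shControl and 23 in shDNM1, a ratio of 2.62 after scaling with an exact 95% interval of 1.17 to 6.44 that covers counting error only. MUC19, a gel-forming mucin of salivary glands, had 7 summed counts in shControl and 0 in shDNM1. MUC21 had 2 and 1, and MUCL3 had 0 and 3. MCAM, an adhesion molecule also named as a mucin, had 912 and 774 summed counts and did not pass the test.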
